A study of Mus musculus with 16 samples.

Results

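The 10 genes described here are targets of the transcription factor p53 and genes used as marks of cellular senescence: *Cdkn1a*, *Cdkn2a*, *Mdm2*, *Bax*, *Bbc3*, *Ccng1*, *Trp53inp1*, *Phlda3*, *Eda2r* and *Gdf15*. They were chosen by symbol, with earlier results of these data known, as were the other gene lists used below. All 10 were found among the 18167 genes of the processed table. RNA-Seq was performed on spinal cords of 16 mice labelled male, each sample being 1 mouse, from a transgenic model of amyotrophic lateral sclerosis (ALS). All 16 mice carried a human profilin 1 (*PFN1*) transgene driven by the mouse prion protein (*Prnp*) promoter, which is active in many cell types, so there was no group without a transgene. The mutant mice, of a C57BL/6N strain, carried the transgene Tg(Prnp-PFN1*G118V)838Kiaei, with the G118V change in PFN1, and were 50 days old and presymptomatic (MY, n = 3) or 175 to 245 days old and at the end stage of disease (MO, n = 5). The controls, also of a C57BL/6N strain, carried wild-type human *PFN1* as Tg(Prnp-PFN1)850Kiaei and were 50 days old (WY, n = 3) or 190 to 294 days old (WO, n = 5). The libraries were made in 2 batches. Batch 2 held MO4, MO5, WO4 and WO5, and all other mice were in batch 1. WO4 and WO5 were 294 days old, older than every MO mouse. Values are log2(1 + FPKM) after batch adjustment by the authors. FPKM is the number of sequenced fragments of a gene scaled to its length and to the size of the library, and the depth behind a gene's value is unknown.

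p53 accumulates after DNA damage and other stress and switches on genes that arrest the cell cycle, repair DNA or start apoptosis. It also switches on *Mdm2*, whose product marks p53 for degradation, so that the response limits itself. Senescent cells leave the cell cycle for good, usually with high levels of cyclin-dependent kinase inhibitors, and release cytokines, proteases and protease inhibitors. In the nervous system, p53 targets have been studied mainly in neuronal death, and senescence mainly in glia.

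One library went against its label. All mice were labelled male, but MO5 had 3.21 for *Xist*, the RNA that silences 1 X chromosome in females, whereas no other mouse was above 0.37. For the Y-linked gene *Ddx3y*, MO5 had 1.95 and every other mouse at least 4.06. The Y-linked genes *Kdm5d*, *Eif2s3y* and *Uty* were also lowest in MO5, at 1.07, 1.82 and 1.05. The main counts of members called are therefore given with and without MO5. For each of the other gene lists, leaving out MO5 moved the number called higher or lower by at most 1 in WO vs. MO and in MY vs. MO. MO1 stood apart in another way: the summed FPKM of 5 blood markers, of which *Hba-a1* was the most abundant, was 11.7 in MO1 and between 43.4 and 96.8 in the other 15 mice. The part of this in the values of MO1 was not tested.

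At the end stage, *Gdf15* and *Cdkn2a* rose in mutant mice against both the young mutants and the old controls. A gene was called at a false discovery rate (FDR) of at most 0.05 with a fold change of at least 1.5, a log2 fold change (FC) of 0.585, by limma. By this rule, 2 of 10 members were called in WO vs. MO, both higher in MO, where 4.08% of all genes were called higher in MO. In MY vs. MO, 2 of 10 were called, again *Gdf15* and *Cdkn2a*, against 4.11% of all genes called higher in MO. Without MO5, both counts were again 2, with *Gdf15* and *Cdkn2a*. By FDR alone, 7 of 10 members were higher in MO in WO vs. MO (15.0% of all genes) and 6 of 10 in MY vs. MO (13.1% of all genes); without MO5 these were 6 and 5. The median log2 FC of the members was 0.45 in WO vs. MO and 0.47 in MY vs. MO, and that of all genes was 0.00035 and 0.0047. Both comparisons use the same 5 MO mice, so they are not independent.

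**Figure D1:**
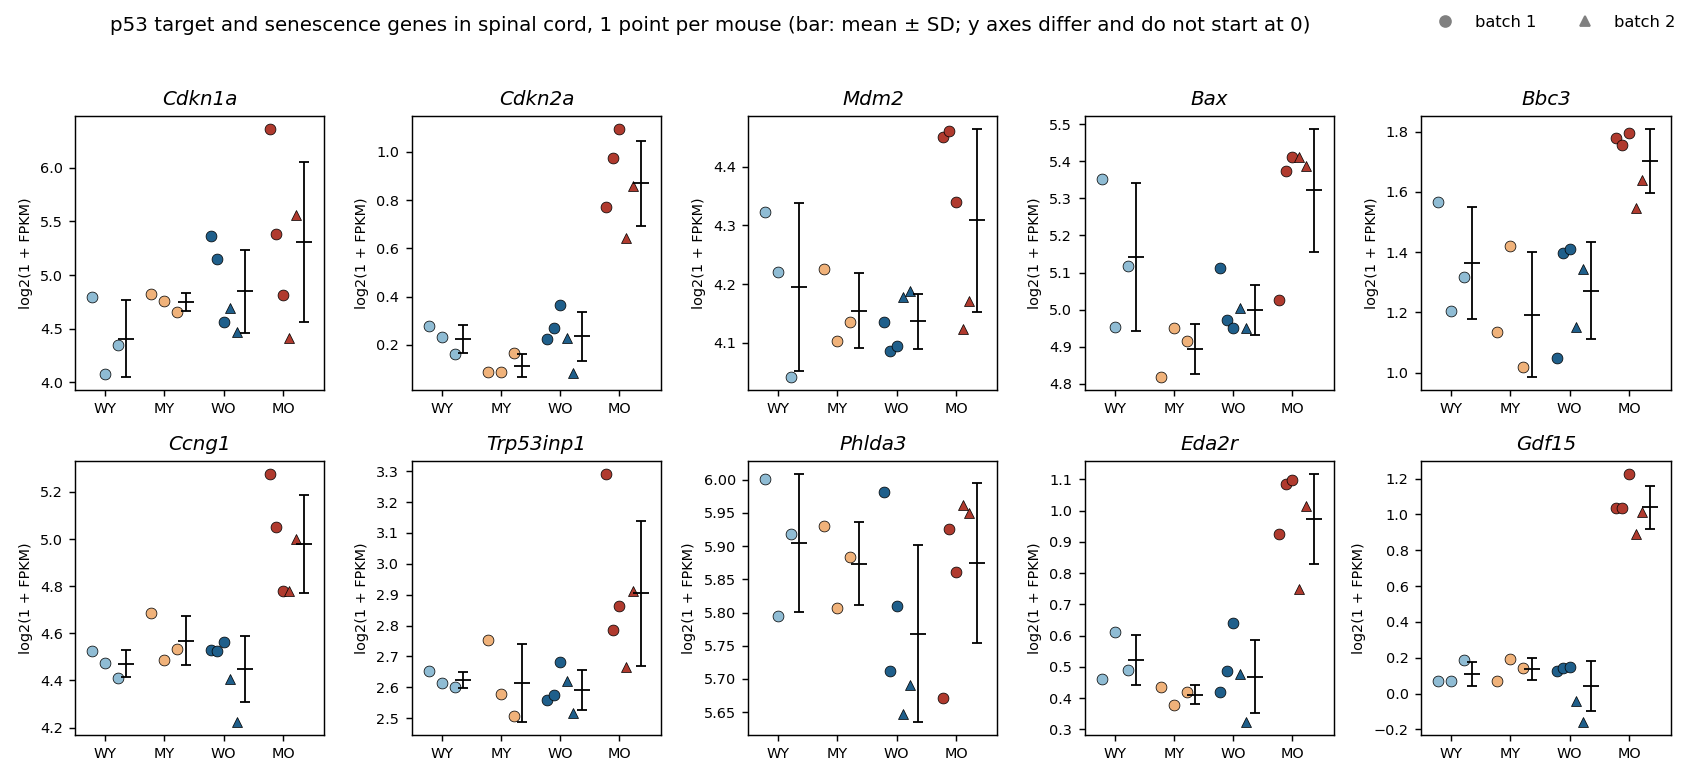
Level of each of the 10 genes, as log2(1 + FPKM), in every mouse by group (WY, MY, WO and MO; circles, batch 1; triangles, batch 2), with the mean and SD beside the points; the y axes differ and do not start at 0. For *Cdkn2a*, *Ccng1*, *Eda2r* and *Gdf15*, every MO mouse lies above the other 11 mice, whereas the MO mice for *Cdkn1a* spread from 4.41 to 6.37.

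By role, p53 itself and the proteins that hold it in check come first. *Trp53*, the gene of p53 itself, had a mean of 3.83 ± 0.12 (SD, n = 5) in the MO mice. In the WO mice it was 3.60 ± 0.076 (n = 5), and the young mice had 3.51 ± 0.037 (MY, n = 3) and 3.57 ± 0.12 (WY, n = 3). Its log2 FC of 0.22 in WO vs. MO (FDR = 0.0219) and 0.32 in MY vs. MO (FDR = 0.0119) passed the FDR limit but not the fold limit. *Mdm2*, which encodes the ubiquitin ligase that degrades p53, was 4.45, 4.46, 4.34, 4.12 and 4.17 in MO1 to MO5, 4.14, 4.09, 4.09, 4.18 and 4.19 in WO1 to WO5, 4.23, 4.10 and 4.14 in MY1 to MY3, and 4.32, 4.22 and 4.04 in WY1 to WY3. MO1, MO2 and MO3 were the highest mice, while MO4 and MO5 lay among the controls. The log2 FC of *Mdm2* was 0.17 in WO vs. MO (SE = 0.069, FDR = 0.0886), with 0.31 in batch 1 (3 against 3 mice) and -0.036 in batch 2 (2 against 2 mice). *Mdm4*, a relative of *Mdm2* that blocks p53 without degrading it, had a log2 FC of -0.10 in WO vs. MO (FDR = 0.345) and -0.059 in MY vs. MO (FDR = 0.636). Of 17 genes listed as p53 and its regulators, 0 were called higher and 1 lower in WO vs. MO, and the same numbers held in MY vs. MO; of all genes, 0.517% were called lower in WO vs. MO and 0.787% in MY vs. MO. The called gene was *Hipk2*, a kinase that phosphorylates p53, which fell by 0.64 (FDR = 0.00205) in WO vs. MO and fell by 0.66 (FDR = 0.00309) in MY vs. MO.

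*Cdkn1a* encodes the cyclin-dependent kinase inhibitor p21, the best known p53 target in cell cycle arrest. It was 6.37, 5.38, 4.82, 4.41 and 5.56 in MO1 to MO5, 5.37, 5.15, 4.56, 4.69 and 4.47 in WO1 to WO5, 4.82, 4.76 and 4.66 in MY1 to MY3, and 4.79, 4.08 and 4.35 in WY1 to WY3. MO1, MO5 and MO2 were the highest mice, MO2 only just above WO1, and MO4 was one of the lowest, so the MO mice overlapped with every other group. The log2 FC was 0.46 (95% confidence interval -0.27 to 1.19, FDR = 0.349) in WO vs. MO and 0.56 (-0.30 to 1.42, FDR = 0.331) in MY vs. MO. Neither passed the test, and the intervals include both 0 and a fold change above 1.5. Without MO1, the log2 FC was 0.20 in WO vs. MO and 0.30 in MY vs. MO.

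*Cdkn2a* encodes an inhibitor of CDK4 and CDK6 and, in another reading frame, the ARF protein that binds MDM2; a gene-level value cannot tell their transcripts apart. It was 0.77, 0.98, 1.10, 0.64 and 0.86 in MO1 to MO5, 0.23, 0.27, 0.36, 0.23 and 0.084 in WO1 to WO5, 0.086, 0.086 and 0.17 in MY1 to MY3, and 0.28, 0.23 and 0.16 in WY1 to WY3. Every MO mouse was above every other mouse, although the level was low in all groups. MY1 and MY2 had exactly the same value, 0.0857865. It may be the adjusted value of a mouse with no fragments detected, which was not tested. In FPKM, the mean was 0.838 ± 0.224 (SD, n = 5) in MO and 0.179 ± 0.082 (n = 5) in WO. *Cdkn2a* rose by a log2 FC of 0.63 (SE = 0.083, FDR = 0.000317) in WO vs. MO and of 0.76 (SE = 0.095, FDR = 0.00103) in MY vs. MO, on the log2(1 + FPKM) scale, which understates the change of genes with FPKM near or under 1. The difference in WO vs. MO was 0.66 in batch 1 and 0.59 in batch 2. Without MO3 it was 0.578 (FDR = 0.000594), under the fold limit of 0.585, and after quantile normalization of all 16 mice it was 0.556 (FDR = 0.000503), also under it.

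*Ccng1* encodes cyclin G1, which recruits a phosphatase to MDM2. It was 5.28, 5.05, 4.78, 4.78 and 5.00 in MO1 to MO5, 4.53, 4.52, 4.56, 4.41 and 4.22 in WO1 to WO5, 4.69, 4.49 and 4.53 in MY1 to MY3, and 4.52, 4.48 and 4.41 in WY1 to WY3. Every MO mouse was above the other 11, although the lowest, at 4.78, was close to the highest of the others, MY1. The log2 FC of 0.53 in WO vs. MO (SE = 0.10, FDR = 0.00309) and 0.41 in MY vs. MO (SE = 0.12, FDR = 0.0322) passed the FDR limit and not the fold limit. *Cdkn2b*, the neighbour of *Cdkn2a* that encodes a related CDK4 and CDK6 inhibitor, had a log2 FC of 0.26 in WO vs. MO (FDR = 0.0145) and 0.40 in MY vs. MO (FDR = 0.0096), below the fold limit. Of 19 genes listed as cell cycle inhibitors and the RB pathway, 3 were called higher and 0 lower in WO vs. MO. These were *Cdkn2c*, a further CDK4 and CDK6 inhibitor (0.80, FDR = 2.37e-05), and the D-type cyclins *Ccnd2* (0.65, FDR = 0.000317) and *Ccnd1* (0.60, FDR = 0.00275), which act in the opposite direction by driving these kinases. In MY vs. MO, 0 were called higher and 1 lower, *Cdkn1c*, an inhibitor of the p21 family, which fell by 1.04 (FDR = 0.00554). Of all genes, 4.08% were called higher in WO vs. MO, and 0.787% were called lower in MY vs. MO. *Cdkn1c* also fell with age in the controls, by 0.80 (FDR = 0.0450) in WY vs. WO, and the difference of the age effects, -0.24, did not pass (FDR = 0.578).

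*Bax* and *Bbc3* are the apoptosis genes among the members. *Bax*, which encodes a protein that opens the outer mitochondrial membrane, was 5.03, 5.37, 5.41, 5.41 and 5.39 in MO1 to MO5, 5.11, 4.97, 4.95, 5.00 and 4.95 in WO1 to WO5, 4.82, 4.95 and 4.92 in MY1 to MY3, and 5.35, 4.95 and 5.12 in WY1 to WY3. MO1 was apart from the other MO mice and below WO1, and WY1 reached the level of MO. *Bax* passed the FDR limit alone, with a log2 FC of 0.32 (FDR = 0.00858) in WO vs. MO and 0.43 (FDR = 0.0110) in MY vs. MO. *Bbc3*, which encodes PUMA, a BH3-only protein that activates *Bax*-type proteins, was 1.78, 1.76, 1.80, 1.55 and 1.64 in MO1 to MO5, 1.05, 1.40, 1.41, 1.15 and 1.34 in WO1 to WO5, 1.14, 1.42 and 1.02 in MY1 to MY3, and 1.57, 1.20 and 1.32 in WY1 to WY3. The MO mice were all above the WO and MY mice, and only WY1, at 1.57, was above the lowest MO mouse. Its log2 FC was 0.43 (FDR = 0.0025) in WO vs. MO and 0.51 (FDR = 0.00619) in MY vs. MO, short of the fold limit on the scale of 1 + FPKM; with a pseudocount of 0.1 it was called in both, at 0.64 and 0.78. In the list of 20 BCL2 family genes and caspases, 2 were called higher and 0 lower in WO vs. MO. They were *Bcl2a1b* (2.50, FDR = 2.16e-05) and *Mcl1* (0.64, FDR = 8.23e-05), which both encode proteins that oppose apoptosis. In MY vs. MO, 1 was called higher, *Bcl2a1b* (2.29, FDR = 0.000212), and 0 lower. Of all genes, 4.08% were called higher in WO vs. MO and 4.11% in MY vs. MO.

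*Trp53inp1*, a p53-induced nuclear protein that acts in autophagy and cell death, was 3.29, 2.79, 2.86, 2.67 and 2.91 in MO1 to MO5, 2.56, 2.58, 2.68, 2.62 and 2.52 in WO1 to WO5, 2.75, 2.58 and 2.51 in MY1 to MY3, and 2.65, 2.62 and 2.60 in WY1 to WY3. MO1 was the highest mouse, and the other MO mice were close to or just above the controls. The log2 FC was 0.31 in WO vs. MO (FDR = 0.0378) and 0.29 in MY vs. MO (FDR = 0.145), and without MO1 it was 0.22 (FDR = 0.0176) and 0.19 (FDR = 0.108). *Phlda3*, which encodes a protein that restrains AKT, had the highest mean FPKM of the members in each of the 4 groups and ranged from 5.67 to 5.96 in MO, 5.65 to 5.98 in WO, 5.81 to 5.93 in MY and 5.80 to 6.00 in WY. All groups overlapped. Its log2 FC was 0.11 (FDR = 0.339) in WO vs. MO, with -0.015 in batch 1 and 0.29 in batch 2, and 0.0009 (FDR = 0.995) in MY vs. MO.

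*Gdf15* and *Eda2r* encode a secreted stress cytokine and a receptor. *Gdf15* was 1.04, 1.04, 1.23, 0.89 and 1.01 in MO1 to MO5, 0.13, 0.14, 0.15, -0.044 and -0.16 in WO1 to WO5, 0.072, 0.19 and 0.14 in MY1 to MY3, and 0.072, 0.072 and 0.19 in WY1 to WY3. The 5 MO mice lay close together and far above the other 11, none of which exceeded 0.19, and the values below 0 in WO4 and WO5 are a product of the batch adjustment. WY1, WY2 and MY1 had exactly the same value, 0.0719158. It may be the adjusted value of a mouse with no fragments detected, which was not tested. *Gdf15* rose by a log2 FC of 1.00 (SE = 0.076, FDR = 2.16e-05) in WO vs. MO, with 0.96 in batch 1 and 1.05 in batch 2, and by 0.90 (SE = 0.071, FDR = 0.000247) in MY vs. MO. In FPKM it averaged 1.06 ± 0.176 (SD, n = 5) in MO. *Eda2r*, the receptor for the A2 form of ectodysplasin, was 0.93, 1.08, 1.10, 0.75 and 1.02 in MO1 to MO5, 0.42, 0.49, 0.64, 0.48 and 0.32 in WO1 to WO5, 0.44, 0.38 and 0.42 in MY1 to MY3, and 0.46, 0.61 and 0.49 in WY1 to WY3. Every MO mouse was above the other 11, with MO4 the nearest to them. *Eda2r* passed the FDR limit and not the fold limit, at 0.51 (SE = 0.077, FDR = 0.00076) in WO vs. MO and 0.56 (SE = 0.079, FDR = 0.00171) in MY vs. MO. That limit applies to 1 + FPKM: the mean FPKM itself was 0.973 in MO, 0.388 in WO and 0.330 in MY, a ratio of 2.51 in WO vs. MO and 2.94 in MY vs. MO, and with a pseudocount of 0.1 in place of 1 *Eda2r* was called in both. Of 6 other measured genes of ectodysplasin and GDF15 signaling, among them *Edar*, the receptor for the A1 form, and its adaptor *Edaradd*, 0 were called in either comparison. *Eda*, the gene of ectodysplasin, had a log2 FC of 0.26 (FDR = 0.0256) in WO vs. MO and 0.18 (FDR = 0.204) in MY vs. MO. *Traf3*, the gene of a signaling adaptor, went the other way and passed the FDR limit in both, at -0.34 (FDR = 0.000609) in WO vs. MO and -0.46 (FDR = 0.00146) in MY vs. MO. Both genes were chosen after their values were seen.

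**Figure D2:**
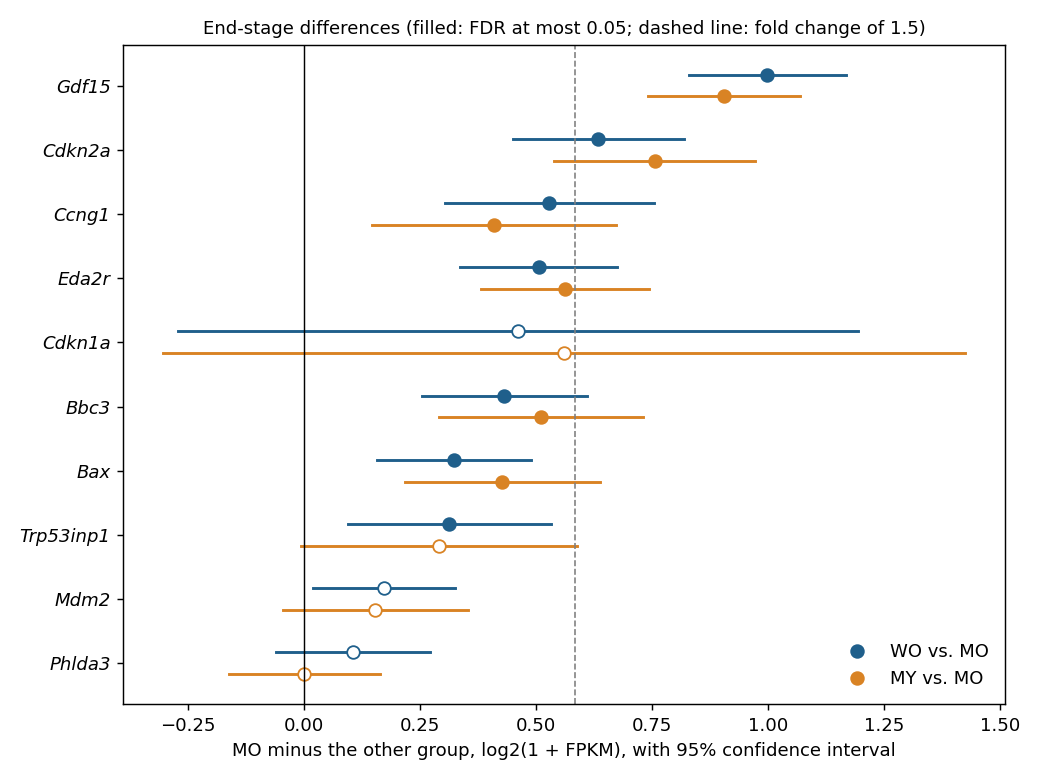
Difference between MO and the other group for each member, in log2(1 + FPKM), with the 95% confidence interval from limma (blue, WO vs. MO; orange, MY vs. MO; filled points, FDR at most 0.05; dashed line, fold change of 1.5). *Gdf15* and *Cdkn2a* lie to the right of the dashed line in both comparisons, and the intervals of *Cdkn1a* are the widest.

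The MO mice did not overlap with, and lay above, the WO mice for 5 of 10 members, where 11.3% of all genes did so, and the MY mice for 6 of 10, where 15.7% of all genes did so. For 4 of 10 members, *Cdkn2a*, *Ccng1*, *Eda2r* and *Gdf15*, each MO mouse was above all 11 other mice, against 7.58% of all genes. Without MO5 these counts were again 5, 6 and 4.

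Before the end stage, no difference in the members passed the test. In WY vs. MY, 0 of 10 members were called by limma (0.00550% of all genes), and 0 of 10 had an unadjusted p under 0.05 (1301 of all 18167 genes). The log2 FC ranged from -0.25 for *Bax* to 0.34 for *Cdkn1a*. Both depended on single mice: without WY1, *Bax* had -0.14 and *Cdkn1a* 0.53, and without WY2, *Cdkn1a* had 0.18. Every MY mouse was below every WY mouse for 2 of 10 members, *Bax* and *Eda2r*, and for 7.52% of all genes. With 3 mice a group, the 95% confidence interval of *Cdkn1a* ran from -0.080 to 0.76, which includes a fold change above 1.5. In the controls, the comparison of age, WY vs. WO, also had 0 of 10 members called (0.253% of all genes) and 0 of 10 with an unadjusted p under 0.05 (2447 of all 18167 genes). The largest difference was again that of *Cdkn1a*, at 0.44 (FDR = 0.481; 0.28 without WY2), and the difference of *Cdkn2a* was 0.0099 (FDR = 0.976). WY vs. WO shares the WO mice with WO vs. MO.

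The age effect was then compared between genotypes in 1 fit of all 16 mice, as (MO - MY) - (WO - WY). It was larger in the mutants for 4 of 10 members, where 5.61% of all genes were called in either direction. The difference was 0.97 for *Gdf15* (FDR = 7.01e-05), 0.75 for *Cdkn2a* (FDR = 0.000666), 0.61 for *Eda2r* (FDR = 0.00169) and 0.60 for *Bbc3* (FDR = 0.0146). *Bax* had 0.57 (FDR = 0.00822), just under the fold limit, so that 5 of 10 members passed by FDR alone, where 17.7% of all genes did in either direction. The same difference is (MO - WO) - (MY - WY), so the log2 FC of WY vs. MY, which was -0.25 for *Bax*, -0.17 for *Bbc3*, -0.11 for *Cdkn2a* and -0.11 for *Eda2r*, is part of it. For *Cdkn2a*, that log2 FC includes the identical values of MY1 and MY2, in which no fragments may have been detected. For *Cdkn1a* the age effect was 0.56 in the mutants and 0.44 in the controls, and their difference of 0.12 did not pass (FDR = 0.908). Without MO5 the same 4 members were called, and without MO3 the number was 2, *Cdkn2a* and *Gdf15*. *Bbc3* and *Eda2r* lay close to the fold limit: with 1 mouse left out, the call of *Bbc3* was lost in 7 of 16 fits, where its difference was as low as 0.50, and that of *Eda2r* in 3 of 16, where it was as low as 0.57. After quantile normalization, 2 of 10 members were called, *Gdf15* and *Cdkn2a*, and *Eda2r* (0.53) and *Bbc3* (0.50) were under the fold limit. All 6 young mice were in batch 1, so the batch adjustment may have moved the old groups against the young ones. In batch 1 alone, with 3 mice a group, *Gdf15* (0.96), *Cdkn2a* (0.84) and *Eda2r* (0.62) were called in MY vs. MO, and *Gdf15*, *Cdkn2a*, *Eda2r* and *Bbc3* for the difference of age effects.

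Other known p53 targets were counted from a list of 35 genes. In WO vs. MO, 4 were called higher and 0 lower, against 4.08% of all genes called higher. In MY vs. MO, 6 were called higher and 0 lower, against 4.11% of all genes called higher. The largest in WO vs. MO were *Fas*, a death receptor (1.04, FDR = 0.000193), *Psrc1*, which encodes a microtubule-binding protein (1.04, FDR = 0.00011), and *Tap1*, a peptide transporter of antigen presentation (0.85, FDR = 2.36e-05). In MY vs. MO, these had 1.23 (FDR = 0.000314), 0.94 (FDR = 0.00219) and 0.94 (FDR = 0.000247). By FDR alone, 13 of the 35 were higher and 1 lower in WO vs. MO, against 15.0% and 12.9% of all genes. In MY vs. MO, 13 were higher and 2 lower by FDR alone, against 13.1% and 12.5%. The median log2 FC of the 35 genes was 0.10 in WO vs. MO and 0.15 in MY vs. MO, lower than that of the 10 members.

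Secreted and structural genes associated with senescence had the most calls among the pathway lists. Of 28 measured genes, 17 were called higher and 0 lower in WO vs. MO, against 4.08% of all genes called higher. In MY vs. MO, 17 were called higher and 0 lower, against 4.11% of all genes called higher. The list was chosen with earlier results of these data known. The median log2 FC was 0.82 and 0.77. The largest increases were those of the protease inhibitor *Timp1* (3.67, FDR = 1.46e-05) and of the chemokines *Ccl3* (3.10, FDR = 2.54e-05) and *Ccl4* (2.53, FDR = 7.9e-05) in WO vs. MO. In MY vs. MO they were 3.18 (FDR = 0.000203), 2.67 (FDR = 0.00064) and 2.23 (FDR = 0.00143). *Il6* (0.0095, FDR = 0.919) and *Lmnb1*, a nuclear lamin often lost in senescence (0.16, FDR = 0.0384), were not called in WO vs. MO; both were chosen after their values were seen. Many genes of this list are also made by activated microglia and astrocytes that are not senescent. Of 12 proliferation genes, 0 were called in either comparison, although 9 of 12 were higher in MO by FDR alone in WO vs. MO and 2 of 12 in MY vs. MO. The shares of all genes higher by FDR alone were 15.0% and 13.1%. For the difference of age effects, 2 of 12 were called higher, *Top2a* (0.73, FDR = 0.00519) and *Mcm3* (0.68, FDR = 0.00259), and 6 of 12 were higher by FDR alone. Of all genes, 5.61% were called in either direction for this difference, and 17.7% passed by FDR alone. *Mki67* had a mean of 0.54 in MO and 0.16 in WO, and *Pcna*, the most abundant of the 12 in FPKM, had 5.82 and 5.64; both were chosen after their values were seen.

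Markers of microglia were higher in MO, as were some of astrocytes, whereas the oligodendrocyte markers called were lower. For the counts below, 4.08% of all genes were called higher and 0.517% lower in WO vs. MO. In MY vs. MO, 4.11% were called higher and 0.787% lower, and in WY vs. WO, 0.253% were called in either direction. All 5 of the 5 microglia markers were called higher in MO in both comparisons. Their summed FPKM was 91.6, 123, 180, 79.6 and 98.5 in MO1 to MO5, 25.5, 25.8, 25.8, 20.2 and 19.9 in WO1 to WO5, 24.5, 26.7 and 25.3 in MY1 to MY3, and 26.6, 27.5 and 23.5 in WY1 to WY3. The MO mice were thus several-fold above the rest, with MO3 highest and MO4 lowest. In mean FPKM, *Cd68* was the most abundant of the 5 in MO (61.3, against 28.3 for *Cx3cr1*), whereas *Cx3cr1* was in WO (12.1), MY (13.6) and WY (13.1), and *Itgax* was at or below 0 in WO4 and WO5. The order of the 5 MO mice by this sum was also their order by *Cdkn2a* and by *Eda2r*, which was noticed after the values were seen and was not tested. Of 60 astrocyte markers, 12 were called higher and 1 lower in WO vs. MO, and 9 higher and 1 lower in MY vs. MO. Their summed FPKM was 4314 ± 193 (SD, n = 5) in MO and 3769 ± 68.8 (n = 5) in WO. Of 5 motor neuron markers, 1 was called lower in WO vs. MO, *Chat*, the acetylcholine-synthesizing enzyme, which fell by 0.67 (FDR = 3.13e-05), and their summed FPKM was 14.8 ± 1.24 (n = 5) in MO and 22.4 ± 0.958 (n = 5) in WO. Of the same 5, 0 were called in MY vs. MO, and the sum was 18.8 ± 0.659 (n = 3) in MY and 17.7 ± 3.19 (n = 3) in WY, where WY1, at 14.0, lay within the range of MO. By FDR alone, 3 of the 5 were lower in MO in each of WO vs. MO and MY vs. MO. In whole tissue, more or fewer cells of a type and more or less RNA per cell cannot be told apart, and the part of these cell types in the results on the members was not tested. Of the 71 neuron markers, 2 were called higher and 2 lower in WO vs. MO, and 2 higher and 2 lower in MY vs. MO. By FDR alone, 7 were higher and 31 lower in WO vs. MO, and 5 higher and 37 lower in MY vs. MO, where 12.9% and 12.5% of all genes were lower. Their summed FPKM was 5312 ± 261 (n = 5) in MO and 6772 ± 283 (n = 5) in WO, and the groups did not overlap. Of the 35 oligodendrocyte markers, 0 were called higher and 3 lower in WO vs. MO, 0 higher and 13 lower in MY vs. MO, and 0 higher and 7 lower in WO in WY vs. WO. Their summed FPKM averaged 14861 ± 8118 (n = 5) in MO and 13295 ± 7091 (n = 5) in WO, with *Mbp* the most abundant. The sums were 8316, 9111, 9399, 24123 and 23354 in MO1 to MO5, and 11959, 11011, 11151, 6877 and 25475 in WO1 to WO5. *Mbp* itself had a log2 FC of 1.55 (FDR = 0.479) in WO vs. MO. None of the 8 endothelial, 5 blood, 6 peripheral nerve or 6 T cell markers was called in WO vs. MO or MY vs. MO, although 6 of the 8 endothelial markers were lower in MO by FDR alone in WO vs. MO and 0 in MY vs. MO. Of the 6 T cell markers, 2 were higher in MO by FDR alone in WO vs. MO (1 without MO5) and 0 in MY vs. MO. Their summed FPKM was 0.479 ± 0.128 (n = 5) in MO and 0.161 ± 0.090 (n = 5) in WO, with every MO mouse above every WO mouse. Of the 6 peripheral nerve markers, 1 was higher in WO vs. MO, and 1 higher and 1 lower in MY vs. MO, by FDR alone, and of the 5 blood markers 0 in both. Without MO5, 1 endothelial marker was called lower in WO vs. MO.

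The members varied together mainly through the MO mice. Over the 16 mice, the median Pearson r of the 45 pairs of members was 0.66, and over the 11 mice other than MO it was 0.18. These are descriptions, since the 16 mice fall into separate groups. For each member called in at least 1 comparison, the 3 genes with the highest r over the 16 mice were taken. For *Gdf15* they were *Tnfrsf1a*, a receptor of tumor necrosis factor (r = 0.99 over 16 mice, 0.84 over the 11 others), *Tmem43*, a membrane protein (0.99 and 0.86), and *Fmod*, an extracellular matrix proteoglycan (0.99 and 0.81). For *Cdkn2a* they were *Pla2g15*, a lysosomal phospholipase (0.99 over 16 mice, 0.75 over the 11 others), *Cd244*, an immune cell receptor (0.98 and 0.66), and *Trem2*, a microglial receptor (0.98 and 0.61). For *Eda2r* they were *Cd244* (0.98 and 0.76), *Cdkn2a* (0.98 and 0.76) and *Pla2g15* (0.97 and 0.59). For *Bbc3* they were *1110038B12Rik* (0.93 and 0.85), *Ctdsp1*, a phosphatase (0.91 and 0.78), and *Hrk*, another BH3-only gene (0.89 and 0.64). *Cdkn1a*, which was not called, was nearest to *Pnpla2*, a triglyceride lipase (0.95 over 16 mice, 0.86 over the 11 others), *Fkbp5*, a co-chaperone of steroid receptors (0.94 and 0.87), and *Plin4*, a lipid droplet protein (0.94 and 0.91), which were named after their values were seen. *Fkbp5* was 5.40, 4.26, 3.79, 3.42 and 4.11 in MO1 to MO5 and 4.19, 3.93, 3.59, 3.58 and 3.66 in WO1 to WO5. MO1 was highest and MO4 lowest for both genes among the MO mice.

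**Figure D3:**
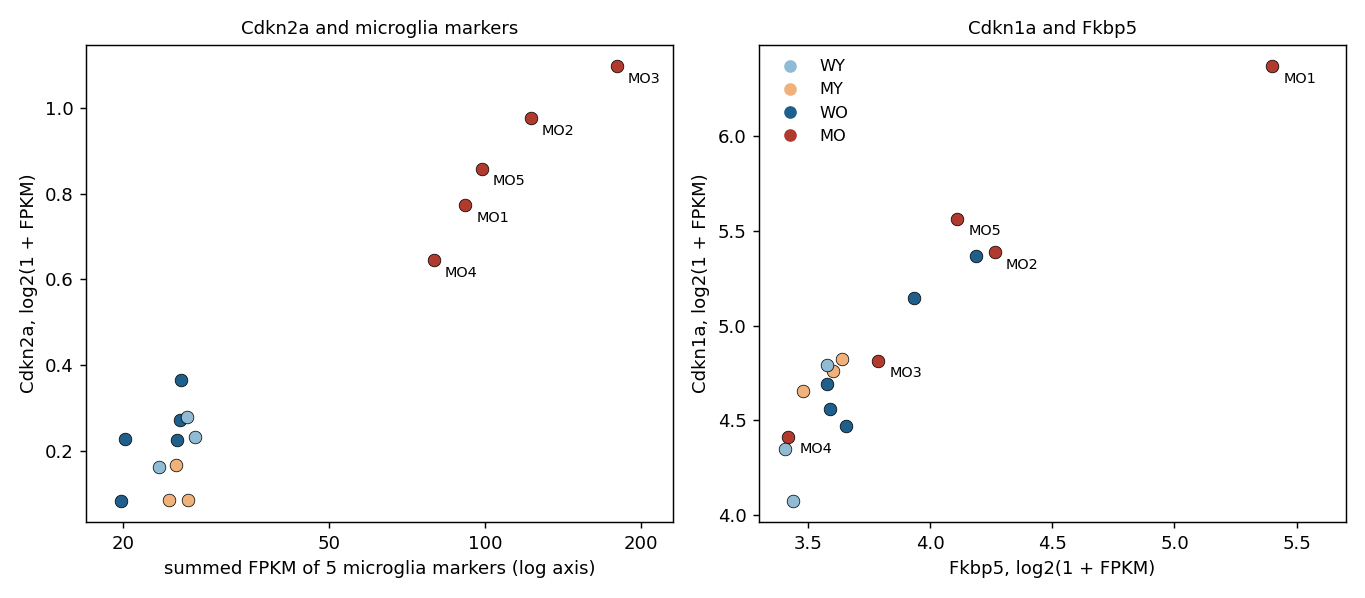
Left, *Cdkn2a* (log2(1 + FPKM)) against the summed FPKM of 5 microglia markers (log axis) in each of the 16 mice; right, *Cdkn1a* against *Fkbp5* (both log2(1 + FPKM)); colors mark the groups, and the MO mice are labelled. On the left, the MO mice lie apart from the other 11; on the right, MO1, MO2 and MO5 lie above the other 11 for *Cdkn1a*, and MO3 and MO4 lie among them.

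By the GENCODE annotation of GRCm38 (the build called mm10), the members are protein-coding genes on 8 chromosomes. *Gdf15* lies at chr8:70629393-70632456 (minus strand), *Cdkn2a* at chr4:89274471-89294653 (minus strand), with 2 protein-coding transcripts that start at 2 places, and *Cdkn1a* at chr17:29090976-29100727 (plus strand). *Bax* shares exons with the gene model *Gm45808* on the same strand, so reads there cannot be told apart without knowing how they were assigned. *Cdkn1a* overlaps *AC167363.2* on the opposite strand; the libraries were stranded, which can separate such reads, but whether the strand was used in counting is not given in the sources used here. Promoters (250 bases before to 50 after the start, RefSeq, GRCm38.p6) were found for 9 members, as 14 entries; *Trp53inp1* had none. They were searched for the p53 half-site consensus of 10 bases, which reads the same on both strands. Of all 32851 promoters, 8.36% held a half-site, and 0.0731% a pair at most 13 bases apart. Of the 14 promoters, 4 held a half-site and 1 a pair, the *Cdkn1a* promoter at chr17:29090729-29091028. The other *Cdkn1a* promoter, at chr17:29093519-29093818, held 0 half-sites. The pair is 12 bases apart, and a match describes letters, not binding. The windows upstream of the start that hold them are shown because they are the only matches among the members, with the half-sites in capitals, 5′ to 3′ on the strand of the gene. They lie at chr17:29090876-29090967 (*Cdkn1a*), chr7:45467060-45467129 (*Bax*), chr11:40755432-40755501 (*Ccng1*) and chr10:117710905-117710974 (*Mdm2*), and none overlaps an annotated exon. The called genes *Gdf15* and *Cdkn2a* had no match in their windows, which says nothing of sites elsewhere.
Cdkn1a: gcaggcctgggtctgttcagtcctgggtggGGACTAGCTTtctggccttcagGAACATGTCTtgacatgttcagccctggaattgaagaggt
Bax: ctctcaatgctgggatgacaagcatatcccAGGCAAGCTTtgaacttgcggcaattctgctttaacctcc
Ccng1: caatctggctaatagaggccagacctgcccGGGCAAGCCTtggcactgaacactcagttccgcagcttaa
Mdm2: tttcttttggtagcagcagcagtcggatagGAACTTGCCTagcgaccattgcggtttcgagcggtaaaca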

How the data were processed

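The submitters' processing notes name Trimmomatic, TopHat and Cufflinks and the mm10 build; tool versions are not given in the sources used here. The authors deposited log2 values, log2(1 + FPKM), of 18167 genes in 16 mice, after removing genes at 0 in many samples and adjusting for the 2 batches with ComBat; its covariates are not given in the sources used here. All 6 young mice were in batch 1, so the adjustment may have moved differences between young and old groups. The adjustment leaves 915 values below 0, and sequencing depth cannot be recovered from it. Values were used as deposited, with no further filter.

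Differences were tested with limma 3.58.1 (R 4.3.3; lmFit and eBayes, two-sided, separate fits of 2 groups, Benjamini-Hochberg over 18167 genes) with an FDR limit of 0.05 and a fold limit of 1.5. All 16 mice entered the fit of the difference of age effects. The tests were checked on simulated data. FPKM is 2 to the power of the value, minus 1. Promoters were searched and plots drawn with Python 3.11.15 and matplotlib 3.10.9.

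The members and gene lists were chosen with earlier results of these data known. All members are named; from each list, at most the 3 largest increases and 3 largest decreases among called genes; *Trp53*, *Mdm4* and *Cdkn2b* always; and the 3 genes most correlated with each member called. Alternatives were batch 1 only, batch as a term, a minimum mean of 1, all groups in 1 fit, quantile normalization, a pseudocount of 0.1, an intensity trend, a replicate block, FDR alone and each mouse left out. No column was left out.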

Additional observations from a re-analysis of the deposited data

Results flagged for a closer look

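*Bax* in MO1 was 5.03, far below the other 4 MO mice, which lay between 5.37 and 5.41. The gap was 0.902 of the range of the group. Of 28 groups of 5 mice examined (the 10 members and the summed FPKM of the microglia, astrocyte, motor neuron and proliferation lists, in WO and MO), 1 was set apart in this way, and chance sets apart about 1 in 20.

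The age effect differed between genotypes, by the test of (MO - MY) - (WO - WY), for 5 of 10 members at an FDR of at most 0.05, as it did for 17.7% of all genes. The differences were 0.97 for *Gdf15*, 0.75 for *Cdkn2a*, 0.61 for *Eda2r*, 0.60 for *Bbc3* and 0.57 for *Bax*, each larger in the mutants.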

How the results depend on the processing

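Members called changed with the filter, the fold limit, the pseudocount, quantile normalization and single mice left out. With genes of a mean of at least 1, which leaves 7 members and drops *Cdkn2a*, *Eda2r* and *Gdf15*, 0 were called in MY vs. MO, 0 in WO vs. MO and 1 (*Bbc3*) for the difference of age effects. With a pseudocount of 0.1, 4 were called in MY vs. MO and 4 in WO vs. MO, *Bbc3* and *Eda2r* being added. The share of all genes called with this pseudocount is not given, so these counts describe the members alone. By FDR alone the counts were 6 and 7. After quantile normalization, 1 (*Gdf15*, 0.89) was called in WO vs. MO, where *Cdkn2a* had 0.556 (FDR = 0.000503), and 2 for the difference of age effects, where *Eda2r* had 0.53 and *Bbc3* 0.50; the cause was not tested. Leaving out each mouse gave 2 to 3 in MY vs. MO, 1 to 2 in WO vs. MO, 2 to 5 for the difference of age effects and 0 to 0 in WY vs. WO and WY vs. MY; the 1 and the 2 came without MO3. For the difference of age effects, the call of *Bbc3* was lost without WY1, MY1, MY3, WO1, WO4, MO1 or MO3 (lowest value 0.50), and that of *Eda2r* without WY2, WO5 or MO3 (lowest 0.57), while *Bax* was called without WY2, MY2, WO1 or MO1 (highest 0.66). In MY vs. MO, *Bbc3* was called without MY2 (0.63) and *Eda2r* without MO4 (0.62). There, *Eda2r* was also called in batch 1, with batch as a term and with the block (0.62 each). The young mice were all in batch 1, so these settings must give the same log2 FC between a young and an old group. They are not separate checks. With single mice left out, the highest FDR in MY vs. MO was 0.0557 for *Bax* and 0.115 for *Ccng1*, and in WO vs. MO 0.0855 for *Trp53inp1*. The other alternatives stayed within 1.5 times of the counts.

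The replicate numbers do not pair the mice (correlations of same-numbered mice from -0.21 to 0.38). With the replicate block, 3 were called in MY vs. MO, 2 in WO vs. MO and 0 in WY vs. WO and WY vs. MY.

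No called value changed sign. Of the uncalled, *Phlda3* in MY vs. MO was -0.054 in batch 1, with batch as a term and with the block, and -0.012 after quantile normalization; in WO vs. MO it was -0.015 in batch 1. In WY vs. WO, *Ccng1* was 0.069 and *Gdf15* 0.029 in batch 1, with batch as a term and with the block. With mice left out, the ranges that crossed 0 were -0.033 to 0.052 (*Phlda3*, MY vs. MO), and in WY vs. WO -0.14 to 0.0056 (*Mdm2*), -0.17 to 0.010 (*Bbc3*), -0.051 to 0.036 (*Ccng1*) and -0.022 to 0.048 (*Cdkn2a*). In WY vs. MY they were -0.12 to 0.024 (*Mdm2*), -0.080 to 0.043 (*Trp53inp1*), -0.087 to 0.017 (*Phlda3*) and -0.0031 to 0.064 (*Gdf15*), and for the difference of age effects -0.14 to 0.34 (*Cdkn1a*). Depth per gene is unknown, which limits *Cdkn2a*, *Eda2r* and *Gdf15* most.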
